A study of Mus musculus with 8 samples.

Results

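Among nuclei of formalin-fixed paraffin-embedded (FFPE) mouse spleen, a small set of single-cell ATAC-seq barcodes was open at genes of pancreatic acinar cells, the cells of the exocrine pancreas that make digestive enzymes. A barcode, which stands for 1 nucleus, was placed in this set when its fragments fell, by their midpoints, in at least 2 of 13 acinar genes, each taken as the gene body plus 5 kb upstream. This rule held for 120 of 2406 barcodes without reverse crosslinking (−RV), or 4.99% (95% exact binomial interval 4.15 to 5.93). With reverse crosslinking (+RV) it held for 480 of 18620 barcodes, or 2.58% (2.35 to 2.82), which gave 600 of 21026 barcodes in all. They are called acinar-gene barcodes here. The 13 genes and the rule were chosen with earlier results of these data known, so fragments at those genes describe the set and support nothing about it.

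The spleens came from 8-week-old C57BL/6J mice, and no genetic change or treatment of the animals was given. ATAC-seq uses the Tn5 transposase to place adapters in open DNA, and tagmented DNA was purified either with (+RV) or without (−RV) reverse crosslinking, which frees DNA from formaldehyde-linked protein. In the paper's single-cell protocol the barcoded nuclei were pooled and were split between +RV and −RV only after the last ligation. For single-cell ATAC-seq with split-and-pool barcodes the labels give 2 libraries in each condition. Their fragments came as 1 pooled set per condition, so each condition counted as 1 sample and no test between barcodes or conditions was possible. Peak lists were used for 2 bulk ATAC-seq libraries of each condition. The sets held 1727885 fragments in −RV and 14747920 in +RV, and the barcodes had been selected by the authors. The sets shared 2 barcodes, of which 1 was an acinar-gene barcode in 1 set and neither was so in both. Intervals are exact and cover counting error only.

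Acinar cells fill the exocrine pancreas, whose tail lies next to the spleen. They secrete proenzymes for the digestion of protein, fat and starch in response to cholecystokinin, and their identity is held by the bHLH factor PTF1A, which acts with the RBPJ-related factor RBPJL and the nuclear receptor NR5A2. The 13 genes of the rule were proteases and their relatives (Cela1, Cela2a and Cela3b, elastase-like enzymes; Ctrb1 and Ctrc, chymotrypsins; Cpa1 and Cpb1, carboxypeptidases), lipases (Cel, carboxyl ester lipase; Pnlip, pancreatic lipase; Pnliprp1, a lipase-related protein), Dmbt1 (a secreted scavenger receptor protein), Cckar (the cholecystokinin A receptor) and Ptf1a itself.

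The sequences below show the DNA at which these barcodes were open. The first are promoters of genes of the rule and of Gp2, the major membrane glycoprotein of zymogen granules, which the rule did not use. They run from 250 bases before to 50 after the start in RefSeq on GRCm38.p6, are written 5′ to 3′ on the gene's strand, and were chosen after their values were seen because they hold motifs of the acinar factors. Capitals mark CAGCTG (an E-box of PTF1A and other bHLH factors), TGGGAA (RBPJ and RBPJL), CAAGGTCA (NR5A2) and AGATAA (bound by GATA factors), each on either strand.
Cpa1, chr6:30638968-30639267, + strand: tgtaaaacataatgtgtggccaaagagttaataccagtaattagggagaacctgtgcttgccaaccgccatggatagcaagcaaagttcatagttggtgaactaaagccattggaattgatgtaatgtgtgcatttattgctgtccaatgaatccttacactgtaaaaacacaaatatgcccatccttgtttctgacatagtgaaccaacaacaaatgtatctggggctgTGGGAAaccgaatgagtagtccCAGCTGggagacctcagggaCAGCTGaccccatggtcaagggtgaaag
Ctrb1, chr8:111690961-111691260, − strand: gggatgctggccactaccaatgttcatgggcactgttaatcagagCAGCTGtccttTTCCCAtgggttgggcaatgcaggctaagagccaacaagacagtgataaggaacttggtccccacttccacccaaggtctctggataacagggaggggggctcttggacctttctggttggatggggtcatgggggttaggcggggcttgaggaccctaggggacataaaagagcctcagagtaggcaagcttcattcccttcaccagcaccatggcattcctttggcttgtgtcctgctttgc
Cela1, chr15:100687871-100688170, − strand: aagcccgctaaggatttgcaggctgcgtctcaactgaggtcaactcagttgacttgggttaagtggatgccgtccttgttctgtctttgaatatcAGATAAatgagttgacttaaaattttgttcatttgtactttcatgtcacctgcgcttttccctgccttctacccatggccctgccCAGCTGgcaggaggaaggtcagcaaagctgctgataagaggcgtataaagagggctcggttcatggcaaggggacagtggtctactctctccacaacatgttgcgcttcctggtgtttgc
Cel, chr2:28563354-28563653, − strand: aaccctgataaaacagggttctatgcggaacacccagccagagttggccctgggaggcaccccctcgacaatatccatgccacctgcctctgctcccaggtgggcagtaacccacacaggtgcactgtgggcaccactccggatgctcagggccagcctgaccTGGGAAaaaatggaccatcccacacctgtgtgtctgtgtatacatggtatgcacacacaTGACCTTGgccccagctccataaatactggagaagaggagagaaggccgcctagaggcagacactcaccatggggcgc
Gp2, chr7:119459223-119459522, − strand: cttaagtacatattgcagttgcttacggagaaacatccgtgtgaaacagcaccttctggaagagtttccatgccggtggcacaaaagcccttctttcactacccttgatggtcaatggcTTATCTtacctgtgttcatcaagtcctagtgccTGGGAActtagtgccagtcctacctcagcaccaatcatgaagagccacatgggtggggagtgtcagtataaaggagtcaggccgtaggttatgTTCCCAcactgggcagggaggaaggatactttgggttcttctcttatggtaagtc
In the 1000 bp around the Gp2 promoter sequence lay 10 fragments of +RV acinar-gene barcodes, where 0.190 were expected from the other barcodes, and 2 of −RV acinar-gene barcodes, where 0.0583 were expected.

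The next stretches lie outside the genes of the rule and are shown because acinar-gene barcodes of both sets were open there, no bulk library had a peak, and they hold the E-box. They were chosen after their values and letters were seen, and other such bins hold none of the letters marked. Each is a 300-bp part of a 1000-bp bin, read from GRCm38.p6 on the + strand, with the same capitals and with TGTTTAC (FOXA) added.
Upstream of Sel1l, chr12:91854154-91854453: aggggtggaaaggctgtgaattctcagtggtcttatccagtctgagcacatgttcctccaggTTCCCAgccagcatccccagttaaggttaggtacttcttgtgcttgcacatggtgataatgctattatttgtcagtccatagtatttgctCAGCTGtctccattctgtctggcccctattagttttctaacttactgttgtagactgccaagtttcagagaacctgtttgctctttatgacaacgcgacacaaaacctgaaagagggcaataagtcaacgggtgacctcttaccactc
27314 bp from the start of Prss23, chr7:89554136-89554435: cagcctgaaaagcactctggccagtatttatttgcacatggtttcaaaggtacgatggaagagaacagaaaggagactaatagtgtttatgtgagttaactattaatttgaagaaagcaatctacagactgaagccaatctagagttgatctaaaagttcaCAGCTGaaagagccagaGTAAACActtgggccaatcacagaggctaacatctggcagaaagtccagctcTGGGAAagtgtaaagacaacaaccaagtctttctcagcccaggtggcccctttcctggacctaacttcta
Gls2 promoter, chr10:128202001-128202300: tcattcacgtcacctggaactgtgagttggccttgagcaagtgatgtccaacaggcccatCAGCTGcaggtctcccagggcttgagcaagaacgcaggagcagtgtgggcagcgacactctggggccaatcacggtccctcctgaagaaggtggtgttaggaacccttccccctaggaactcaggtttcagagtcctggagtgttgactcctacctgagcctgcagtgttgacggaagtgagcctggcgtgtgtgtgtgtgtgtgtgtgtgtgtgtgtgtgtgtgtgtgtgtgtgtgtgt
The Sel1l bin held 27 fragments of +RV acinar-gene barcodes against 0.663 expected and 7 of −RV acinar-gene barcodes against 0.145 expected. The Prss23 bin held 10 and 5 fragments, against 0.190 expected in +RV and none in the other −RV barcodes. The Gls2 bin held 12 against 0.322 in +RV and 5 against 0.355 in −RV. Its promoter label is that of the 1000-bp bin, whose middle lies 755 bp from the nearest start of Gls2. The printed part lies inside the gene, which runs from 128194457 to 128210004 on the + strand, and its E-box was not placed within a promoter. SEL1L belongs to the machinery that degrades misfolded proteins of the endoplasmic reticulum (ER), PRSS23 is a serine protease, and GLS2 is the liver-type glutaminase.

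Of the genes of the rule, Ctrc, Cela1 and Cela2a had a fragment in the largest shares of acinar-gene barcodes. Cela1 had a fragment in 49.2% of −RV and 46.9% of +RV acinar-gene barcodes, against 2.32% and 1.93% of the other barcodes. Ctrc had one in 53.3% and 51.7%, Cela2a in 45.8% and 45.6%, Cpb1 in 26.7% and 23.3%, and Dmbt1 in 24.2% and 33.8%. The other elastase and chymotrypsin genes had lower shares, with Cela3b at 7.5% and 14.8% and Ctrb1 at 12.5% and 13.5%. Ptf1a was the rarest, in 1.67% of −RV and 5.42% of +RV acinar-gene barcodes. These shares follow from the rule and are given as a description.

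The windows of Cela2a (chr4:141814962-141831160) and Ctrc (chr4:141814962-141851359) overlapped, because both gene models end at the same base, so that 1 fragment there counted for both genes. Of barcodes with exactly 2 genes, 18 of 62 in −RV and 78 of 251 in +RV had just this pair. When the shared stretch was counted for 1 gene, 102 barcodes (4.24%) remained in −RV and 405 (2.18%) in +RV. The 18 and 75 barcodes that the rule took through this stretch alone were less open at acinar enzyme genes outside the rule, with ratios of 1.51 (0.487 to 3.56) in −RV and 2.27 (1.48 to 3.34) in +RV, than the remaining ones, with 6.93 (5.68 to 8.41) and 7.03 (6.41 to 7.69). A ratio here and below is the number of fragments of acinar-gene barcodes over the number expected from the file's other barcodes within the same of 7 classes of nuclear fragments per barcode.

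Few barcodes reached 2 genes and fewer went far beyond. In −RV, 2121 barcodes had no fragment at the 13 genes, 165 had fragments at 1 gene, 62 at 2, 25 at 3, 19 at 4 and 14 at 5 or more. In +RV the counts were 16919, 1221, 251, 106, 60 and 63, and the highest number of genes was 7 in −RV and 9 in +RV. Just inside the threshold, barcodes with 2 genes had a median of 717 nuclear fragments in −RV and 739 in +RV, and just outside it those with 1 gene had 652 and 729.

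Deeper barcodes met the rule more often in +RV and, up to 1500 nuclear fragments, in −RV. Acinar-gene barcodes had a median of 705.5 nuclear fragments in −RV and 819.5 in +RV, against 581 and 620 in the others. The share of acinar-gene barcodes was 1.43% (1.19 to 1.71) among +RV barcodes with under 600 nuclear fragments and 21.1% (14.3 to 29.4) among those with 2500 or more. In −RV it was 2.75% (1.93 to 3.79) under 600 and 14.3% (9.17 to 20.8) from 1000 to under 1500, while the deepest classes held few barcodes, with 3 of 26 from 1500 to under 2500 and 0 of 5 from 2500 on. Thinned to 500 nuclear fragments, 4.0% (3.18 to 4.97) of 1949 −RV and 1.65% (1.46 to 1.86) of 15968 +RV barcodes met the rule, with 457 and 2652 shallower barcodes left out. The share was thus higher in −RV at equal depth too, with 1 pooled set per condition and no replicate check. No doublet caller was run, and without the 5% deepest barcodes the +RV share was 2.1% (1.90 to 2.33).

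The same rule run with genes of other organs caught fewer barcodes for most lists. With 13 hepatocyte genes it took 5 −RV and 37 +RV barcodes, with 12 genes of small intestine and stomach 4 and 45, with 13 kidney genes 14 and 155, and with 13 skeletal muscle genes 27 and 171. With 13 neuron genes, whose windows cover 1809 kb against 322 kb for the acinar genes, it took 88 and 880. Of the spleen's own cell types, 13 B cell genes took 157 and 1793 barcodes, 13 T cell genes 124 and 1253, and 13 erythroid genes 114 and 740. Window lengths differ between lists, so these counts are set side by side without an order.

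Acinar-gene barcodes seldom met the rule for B cell, T cell or erythroid genes as well. Of −RV acinar-gene barcodes 3 (2.50%, 0.519 to 7.13) and of +RV ones 33 (6.88%, 4.78 to 9.52) also had fragments at 2 B cell genes, against 7.30% and 14.1% expected from the other barcodes at the same depth. For T cell genes the counts were 2 (1.67%) and 27 (5.63%), against 5.45% and 9.64% at the same depth. For erythroid genes they were 3 (2.50%) and 23 (4.79%), against 6.81% and 7.16%. Macrophage and monocyte genes gave 1 (0.833%) in −RV, against 2.76%. In +RV they went the other way, with 27 (5.63%, 3.74 to 8.08) against 3.83%.

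Each gene of the rule was also measured in barcodes that the other genes chose, so that its own fragments did not place them. All 13 genes had a ratio above 1 in both sets. In +RV the ratios ran from 10.9 (8.37 to 14.1) for Cpb1 to 27.6 (17.9 to 42.6) for Cckar, and in −RV from 6.36 (3.65 to 10.7) for Dmbt1 to 30.5 (13.2 to 74.5) for Pnliprp1. Cela1 had the most fragments outside the overlapping pair, 237 against 17.8 expected in +RV (13.3, 11.3 to 15.6) and 59 against 3.77 in −RV (15.6, 11.04 to 22.0). Ptf1a, the factor of the list, had 18 against 1.05 in +RV (17.2, 8.90 to 32.3), while in −RV only 2 fragments lay there (14.2, 1.03 to 196). Cela2a was measured in barcodes chosen by the 11 genes other than itself and Ctrc. Since the 13 genes were chosen with results of these barcodes in view, these ratios describe how the genes go together and are not independent of that choice.

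**Figure D1:**
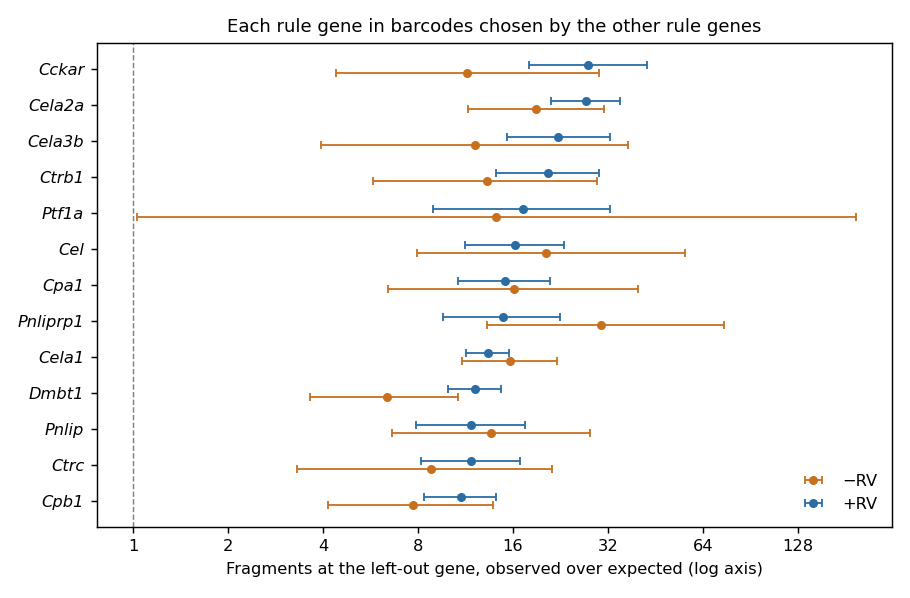
Fragments at each rule gene in barcodes chosen by the other rule genes, over the number expected from the remaining barcodes of the same depth, on a log axis. Points are ratios and bars 95% exact intervals for −RV (orange) and +RV (blue), all at ratios above 1, with Cckar at 27.6 in +RV and Pnliprp1 at 30.5 in −RV.

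Digestive enzymes that the rule did not use were open in the same barcodes. Over 25 genes of acinar enzymes and secreted proteins, acinar-gene barcodes held 151 fragments against 24.5 expected in −RV, a ratio of 6.16 (5.06 to 7.46), and 622 against 96.0 in +RV, a ratio of 6.48 (5.92 to 7.08). The ratio was above 1 for 22 of the 24 genes for which −RV gave a ratio and for 24 of 25 in +RV. Of all genes with a fragment, 37.4% in −RV and 43.4% in +RV had a ratio above 1. The interval of the ratio lay above 1 for 15 and 23 genes of the list and below 1 for none. The share of all genes with such an interval was not counted. Over all genes with a fragment the median ratio was 0.706 in −RV and 0.917 in +RV, against medians of 6.98 and 10.3 over this list. At least 2 of the 25 genes had a fragment in 36 of 120 −RV acinar-gene barcodes (30%, 22.0 to 39.0), against 33 of 2286 others (1.44%, or 2.20% at the same depth). In +RV these were 150 of 480 (31.3%, 27.1 to 35.6) against 167 of 18140 (0.921%, or 1.76% at the same depth). Without genes within 1 Mb of a rule gene 21 genes remained. Their ratio was 5.23 (4.18 to 6.50) in −RV and 5.93 (5.36 to 6.55) in +RV.

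Among proteases, trypsin genes had high ratios, with Try5 at 47.1 (26.3 to 86.7) in +RV and 19.6 (6.21 to 63.5) in −RV, and Prss2 at 18.4 (10.8 to 30.9) and 40.4 (11.04 to 162). These trypsin genes are near-identical copies, so the assignment of fragments among them is uncertain. Spink1, the trypsin inhibitor that acinar cells secrete with the proenzymes, had 42 fragments against 1.75 in +RV, a ratio of 23.97 (15.5 to 37.0), and 6 against 0.805 in −RV, a ratio of 7.45 (2.35 to 20.6).

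The list also held genes of fat digestion and of the zymogen granule. Clps, the colipase that anchors pancreatic lipase, had ratios of 19.3 (9.41 to 39.9) in +RV and 7.78 (1.79 to 33.8) in −RV. Pnliprp2, a lipase-related protein, had 13.96 (9.0 to 21.4) and 6.51 (1.94 to 19.8), and lies close to the rule gene Pnliprp1 on chromosome 19. Gp2 had 48 fragments against 2.20 expected in +RV, a ratio of 21.8 (14.5 to 32.7), and 10 against 0.533 in −RV, a ratio of 18.8 (6.45 to 58.1). Other secreted proteins followed, with Sycn (syncollin, a granule protein) at 14.04 and 21.4, Klk1 (tissue kallikrein) at 24.5 and 5.92, and Reg1 (a regenerating protein of acinar cells) at 13.9 and 10.9 in +RV and −RV. The intervals of these values lay above 1 except that of Klk1 in −RV, which rested on 2 fragments. Genes of this list named here beyond Spink1, Gp2 and Zg16 were picked after their values were seen.

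Not every secreted protein stood out. Zg16, a zymogen granule protein, had 52 fragments against 36.5 in +RV, a ratio of 1.42 (1.05 to 1.88), and 7 against 6.83 in −RV, a ratio of 1.02 (0.402 to 2.18). Prss1 had 1 fragment in +RV, with an interval of the ratio from 0.0438 to 11.6, and 0 in −RV. Prss3 had 0 in +RV and 2 in −RV, where the other barcodes had none and no ratio could be given. Serpina6 had 0 fragments in −RV against 0.472 expected.

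Regulators and membrane proteins of acinar cells were higher as well, by less. Over 29 such genes outside the rule the ratio was 2.53 (2.11 to 3.0) in −RV, with 150 fragments against 59.4 expected, and 2.62 (2.43 to 2.81) in +RV, with 820 against 313. Ratios were above 1 for 21 of 29 genes in −RV and 26 of 29 in +RV, against 37.4% and 43.4% of all genes with a fragment. The interval lay above 1 for 10 and 21 genes and below 1 for none, with no share over all genes counted. Over both outside lists the ratio was 3.59 (3.15 to 4.07) in −RV and 3.52 (3.33 to 3.72) in +RV.

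Factors that act with PTF1A or earlier in the pancreas were among them. Nr5a2 had 75 fragments against 15.7 in +RV, a ratio of 4.78 (3.67 to 6.14), and 15 against 3.13 in −RV, a ratio of 4.79 (2.50 to 8.69). Gata4, which encodes a GATA factor of endodermal organs, had ratios of 6.22 (4.56 to 8.37) and 12.02 (5.78 to 24.03). Rbpjl, the acinar partner of PTF1A, had 26 fragments against 5.47 in +RV, a ratio of 4.75 (2.98 to 7.32), but only 2 in −RV (2.06, 0.228 to 8.99). Bhlha15, which encodes the bHLH factor MIST1 of secretory cells, had 4.94 (3.04 to 7.72) and 9.48 (3.72 to 22.5). Onecut1, a factor of the embryonic pancreas, had 5.17 (3.23 to 7.97) and 4.99 (1.39 to 14.9). Rbpjl, Bhlha15 and Onecut1 were picked after their values were seen.

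Secretory and transport genes of this list were mixed. Sel1l had 112 fragments against 33.1 in +RV, a ratio of 3.38 (2.75 to 4.12), and 23 against 6.49 in −RV, a ratio of 3.54 (2.15 to 5.61). The upstream stretch printed above lies almost wholly beyond the window that gave these counts. Slc4a4, a bicarbonate cotransporter, had 1.71 (1.33 to 2.17) and 1.61 (0.837 to 2.86), and Tmem97, a sterol-regulated ER membrane protein, 3.63 (2.55 to 5.05) and 1.06 (0.211 to 3.31). Cldn10, a tight junction protein, was at 1.04 (0.786 to 1.35) in +RV and 0.478 (0.153 to 1.14) in −RV.

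Barcodes with more genes of the rule were more open at the outside genes. Against barcodes with no fragment at the 13 genes, the ratio at outside enzymes in +RV was 1.59 (1.41 to 1.80) for barcodes with 1 gene, 5.2 (4.50 to 5.99) with 2, 6.81 (5.65 to 8.14) with 3, 8.80 (7.07 to 10.8) with 4 and 8.47 (7.24 to 9.85) with 5 or more. In −RV it was 1.90 (1.39 to 2.55), 4.71 (3.45 to 6.32), 8.07 (5.60 to 11.3), 8.47 (5.58 to 12.4) and 8.20 (5.48 to 11.9). From 3 genes on, the intervals of neighbouring classes overlapped. B cell genes went the other way, from 0.814 (0.7504 to 0.881) with 1 gene to 0.447 (0.311 to 0.622) with 5 or more in +RV. Housekeeping genes stayed between 0.942 and 1.14 in +RV, and each of their intervals held 1.

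**Figure D2:**
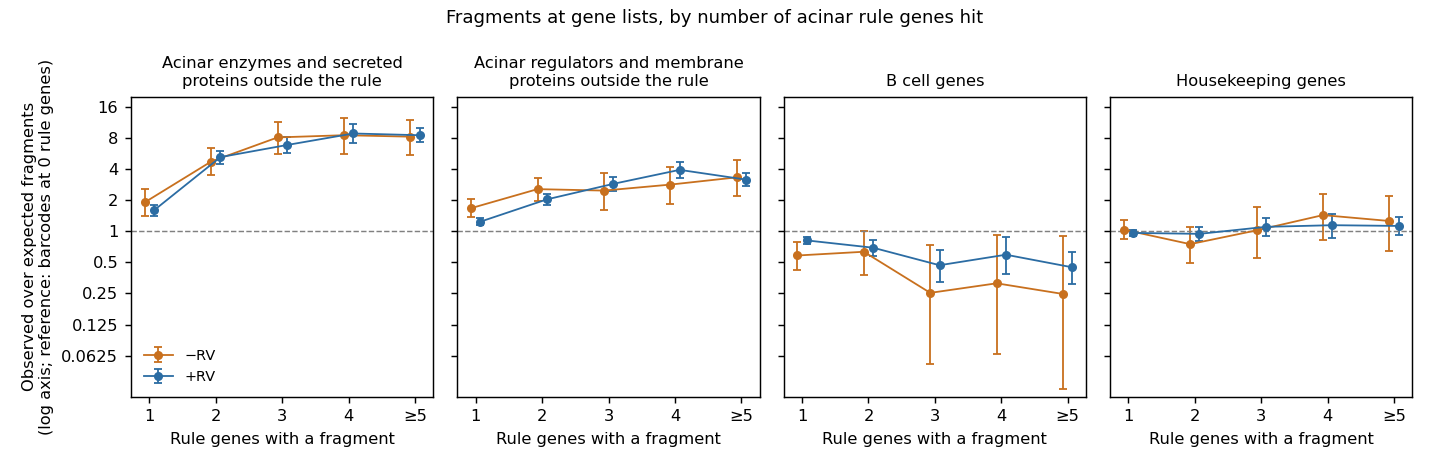
Observed over expected fragments at 4 gene lists for barcodes with 1, 2, 3, 4 or at least 5 rule genes, against barcodes with none, on a log axis. Points are ratios and bars 95% exact intervals for −RV (orange) and +RV (blue); outside enzymes went from 1.59 to 8.47 in +RV, B cell genes from 0.814 to 0.447, and housekeeping genes stayed near 1.

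Epithelial genes were also higher in acinar-gene barcodes, and genes of spleen cells were lower. Genes shared by epithelia, 15 in number, had a ratio of 4.61 (3.54 to 5.94) in −RV and 3.38 (3.02 to 3.77) in +RV. Cdh1 (E-cadherin) had 59 fragments against 13.6 in +RV, a ratio of 4.32 (3.23 to 5.70), and Grhl2, an epithelial transcription factor, 47 against 14.4, a ratio of 3.26 (2.35 to 4.44). In −RV these genes had 2.49 (1.02 to 5.34) and 9.83 (4.57 to 20.2). Pancreatic duct genes, 15 in number, had 2.41 (1.89 to 3.03) and 1.81 (1.61 to 2.03) in −RV and +RV. Duct genes above 1 numbered 11 and 12 of 15, against 37.4% and 43.4% of all genes with a fragment. The interval lay above 1 for 8 duct genes in each set, with no share over all genes counted. It lay below 1 for 1 in −RV, Car2, with 0 fragments against 3.83. Pkhd1, which encodes a protein of primary cilia, had 2.81 (1.75 to 4.32) and 2.27 (1.83 to 2.79). Cftr had 2.19 (1.01 to 4.26) and 1.04 (0.640 to 1.61) in −RV and +RV. Car2 and Cftr were picked after their values were seen.

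Endocrine genes of the pancreas showed less. Over 26 islet genes the ratio was 1.77 (1.21 to 2.52) in −RV and 1.2 (0.994 to 1.44) in +RV. Of these genes 13 in −RV and 15 in +RV had a ratio above 1, and the median ratio was 0.571 and 1.13. Nkx2-2, an islet transcription factor, had 21 fragments against 5.38 in +RV (3.90, 2.33 to 6.22), while Pcsk2, a prohormone convertase, had 14 against 23.8 (0.589, 0.320 to 0.995). In −RV Nkx2-2 had a ratio of 14.3 (3.68 to 49.6). Pcsk2 went the other way there, with 10 fragments against 4.63 (2.16, 0.994 to 4.21), and its interval held 1. ER and secretory pathway genes, which plasma cells of the spleen use too, had 1.27 (1.04 to 1.55) and 1.32 (1.22 to 1.43).

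Lists of the spleen's own cells lay below 1 for lymphocytes and red cells. B cell genes had a ratio of 0.473 (0.310 to 0.693) in −RV and 0.593 (0.515 to 0.679) in +RV, with 0 and 1 of 13 genes above 1. T cell genes had 0.490 (0.298 to 0.762) and 0.705 (0.603 to 0.820), and erythroid genes 0.674 (0.448 to 0.978) and 0.696 (0.583 to 0.826). Ebf1, the early B cell factor, had 55 fragments against 105 in +RV, a ratio of 0.524 (0.393 to 0.684), and Lef1, a T cell factor, 20 against 36.3, a ratio of 0.552 (0.336 to 0.856). Cd247, a chain of the T cell receptor complex, was at 1.02 (0.754 to 1.35) in +RV, and 3 of 13 T cell genes lay above 1 there. Of the erythroid genes Tfrc (the transferrin receptor, which dividing cells use too) was higher, at 1.59 (1.05 to 2.34) in +RV. Without the barcodes that also had fragments at 2 B cell, T cell or erythroid genes, which was added after the data were seen, the ratio at both outside acinar lists was 3.77 (3.30 to 4.29) in −RV and 4.01 (3.77 to 4.26) in +RV.

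Macrophage, plasma cell, endothelial, stromal and adipocyte lists gave ratios between 0.595 and 1.21, and their intervals held 1 except for endothelial genes in +RV, 0.785 (0.674 to 0.909). Of the endothelial genes Emcn (endomucin) went the other way, with 30 fragments against 8.23 in +RV, a ratio of 3.65 (2.41 to 5.34). Hepatocyte genes had 1.51 (0.759 to 2.74) in −RV and 1.53 (1.19 to 1.94) in +RV, where Ttr (transthyretin) had 13 fragments against 1.19 and Apoa2 25 against 19.6. Kidney genes had 1.16 (0.707 to 1.81) and 1.27 (1.06 to 1.52). Skeletal muscle, neuron and intestinal lists lay between 1.07 and 1.33, with only the neuron list in −RV (1.33, 1.01 to 1.71) having an interval above 1. Housekeeping genes were at 0.982 (0.760 to 1.25) and 1.06 (0.959 to 1.16).

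**Figure D3:**
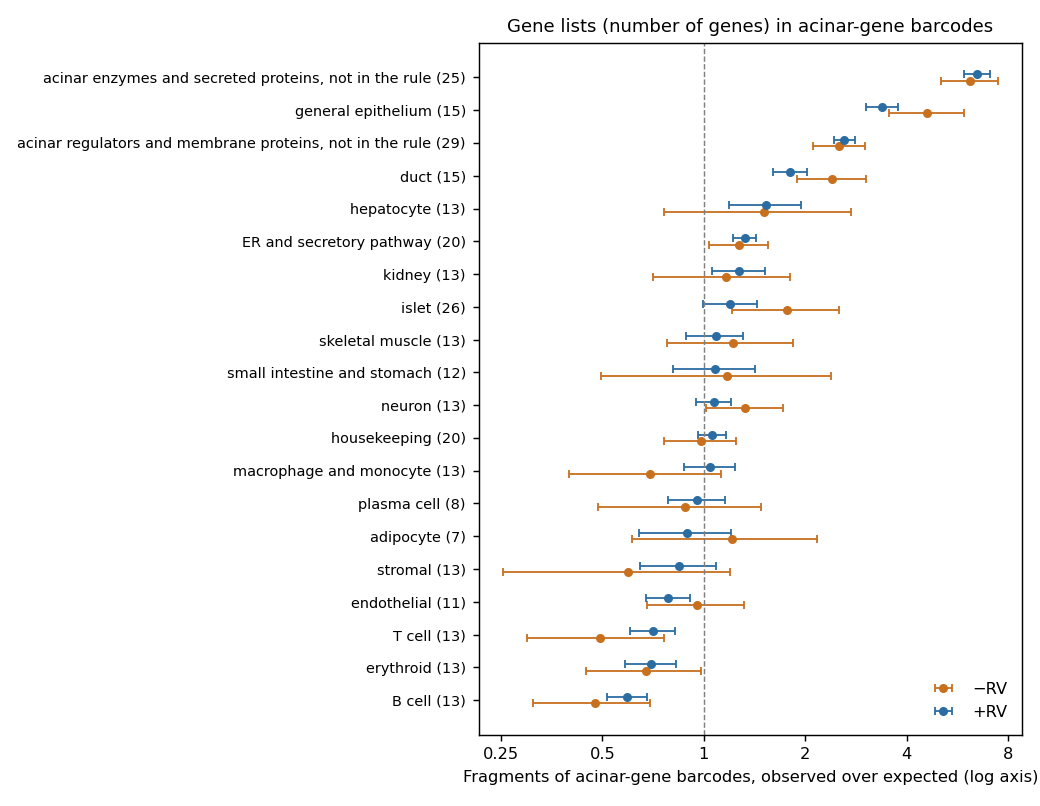
Fragments of acinar-gene barcodes over the number expected, for 20 gene lists outside the rule, on a log axis, with the number of genes in parentheses. Points are ratios and bars 95% exact intervals for −RV (orange) and +RV (blue); outside acinar enzymes (6.16 and 6.48), epithelial genes (4.61 and 3.38) and acinar regulators (2.53 and 2.62) lay highest and B cell genes (0.473 and 0.593) lowest.

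Across all protein-coding genes outside the windows of the rule, 11212 in +RV were used, which were those for which the level over all barcodes gave at least 10 fragments in acinar-gene barcodes. Of these, 446 (3.98%) had a ratio of at least 2 and 785 (7.0%) a ratio of at most 0.5. In −RV 927 genes had enough fragments, and 45 (4.85%) and 161 (17.4%) were past these folds. With so few fragments most acinar enzyme genes fell short of this minimum: of the 25 outside enzymes 2 were used in +RV. Of the 29 regulators 9 were used, of which 4 were higher (Nr5a2, Sel1l, Tmem97 and Xbp1, the last a factor of the unfolded protein response) and 1 was lower (Hhex, a homeobox factor that B cells also use). Of 15 epithelial genes 5 were used in +RV and 4 of them were higher (Cdh1, Grhl2, Esrp1 and Rab25, a GTPase of epithelial trafficking). Of 13 B cell genes 10 were used and 5 were lower (Cd79a of the B cell receptor, Ms4a1, which encodes CD20, Cd22, the kinase gene Blk and the complement receptor gene Cr2). The counts are of sizes, with no test.

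Among the 10 highest ratios in +RV were those of Slc7a8 (6.78, a neutral amino acid transporter), Brsk2 (6.08, a kinase of polarity), 5430419D17Rik (6.04), Gls2 (5.76), Edem2 (5.53, which trims mannose from misfolded ER proteins), Pdgfb (5.35), Esrp1 (5.01, a splicing factor of epithelia), Upp2 (4.95, uridine phosphorylase) and Arhgef26 (4.82). Slc7a8 had 114 fragments against 16.8 and Upp2 133 against 26.8. These genes had a ratio above 2 in −RV as well, between 2.99 (Pdgfb) and 9.98 (Esrp1), and the −RV interval held 1 for Pdgfb alone. The gene 5430419D17Rik lies close to Dmbt1 on chromosome 7.

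Among the 10 lowest ratios in +RV were those of BC147527 and Siah3, with 0 fragments against 8.54 and 15.8 expected (upper limits of the ratio 0.435 and 0.235), and of Plscr2, Lhcgr, Gpr152, S100a6, Dntt, Mical1 and H2-T24, with 1 or 2 fragments each. Among these, Dntt (terminal transferase of lymphocyte precursors) had 1 fragment against 10.6. In −RV, where only widely covered genes were used, the highest ratios belonged to Rap1gap2 (4.03), Nr3c2 (3.59, the mineralocorticoid receptor), Mecom (3.33), Rbm47 (3.26) and Myo10 (3.02). The lowest belonged to Atp10a and Rasa3, with 0 fragments against 10.9 and 12.2, and to Pced1b, Itga4 (an integrin of leukocytes) and Csnk1g3, with 1 each.

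**Figure D4:**
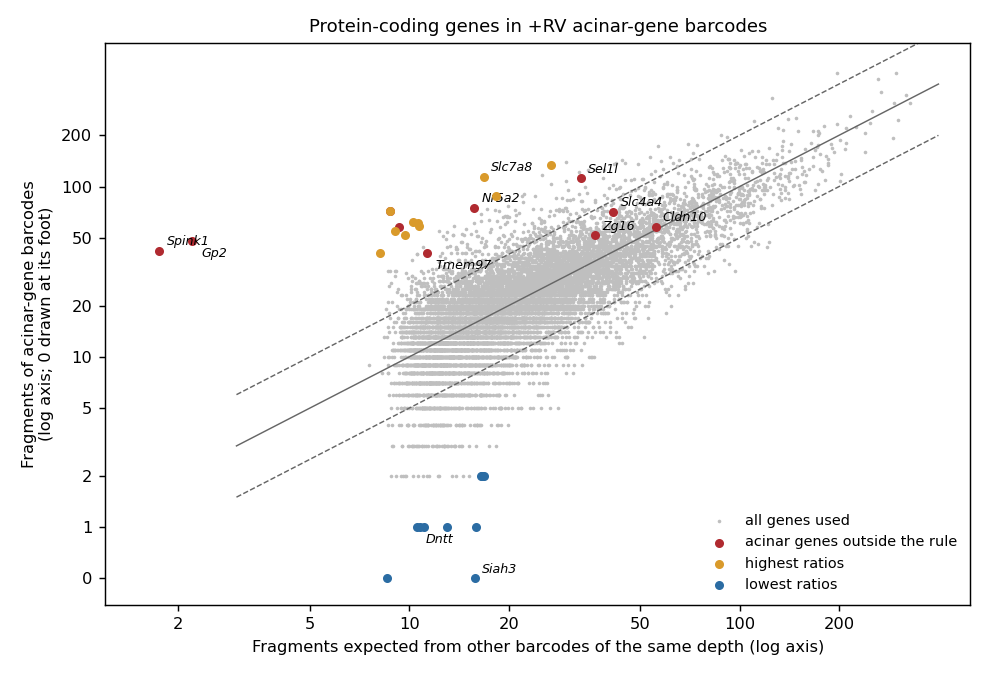
Fragments of +RV acinar-gene barcodes against the number expected from other barcodes of the same depth, 1 point per protein-coding gene used (grey), on log axes with 0 drawn at the foot. The solid line marks equality and dashed lines ratios of 2 and 0.5; Nr5a2 (75 against 15.7) and Sel1l (112 against 33.1) lie above, Siah3 (0 against 15.8) below, and Gp2, Spink1 and Gata4 are drawn although under the minimum of 10.

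Genes picked in 1 set kept their side in the other. Both sets were split from pooled nuclei, so for genes and bins alike the other set is no independent sample. The 446 genes higher in +RV had a pooled ratio of 2.62 (2.54 to 2.70) in −RV, where all 20 of them that were used there lay above 1. The 785 lower genes had 0.503 (0.478 to 0.528) in −RV, and none of the 44 used lay above 1. The 45 genes higher in −RV had 1.80 (1.75 to 1.85) in +RV, with 44 of 45 above 1, and the 161 lower genes had 0.656 (0.643 to 0.669), with 12 of 161 above 1. Of all genes used, 45.2% lay above 1 in +RV and 39.5% in −RV.

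Bins of the genome outside the rule windows, at promoters, in genes and between them, were counted in the same way. Of 3282 bins of 1000 bp with at least 10 fragments of +RV acinar-gene barcodes, 495 (15.1%) had a ratio of at least 4. In −RV, which did not choose them, they had a ratio of 7.33 (6.76 to 7.94), against 1.52 (1.49 to 1.55) over all 3282. Of 424 bins with at least 5 fragments in −RV, 178 (42.0%) had a ratio of at least 4, and in +RV they had 2.65 (2.54 to 2.77) against 1.76 (1.73 to 1.78). A bin entered only through fragments of acinar-gene barcodes, so the shares of 15.1% and 42.0% are raised by that minimum and describe the choice of bins alone. In both sets 32 bins were picked. None of the picked bins held a run of 25 bases of the mitochondrial genome.

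The bins picked in +RV were spread over promoters, genes and the stretches between them. Of the 495, 168 were at promoters, 163 in gene bodies and 164 between genes, while 80.5% of the 3282 were at promoters. A peak of the +RV bulk libraries touched 36.4% and 36.2% of them and a peak of the −RV bulk libraries 24.04% and 24.6%, against 83.6% and 81.4% to 81.6% of the 3282. A ratio of at least 4 favours bins with few fragments in other barcodes, so these differences from the 3282 follow from the choice and are a description. Of the 32 bins picked in both sets, 16 lay between genes, 9 in gene bodies and 7 at promoters.

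Examples of these 32, named after their values were seen, follow. A bin at the 3′ end of Amy2b, an amylase gene (chr3:113147001-113148000), held 22 fragments against 0.245 expected in +RV and 9 against 0.377 in −RV, and both bins beside it were picked too. Amylase genes are near-identical copies, so their fragments are of uncertain origin. A bin at the promoter of Esrp2, an epithelial splicing factor, held 19 against 0.511 and 6 against 0.194, and a bin at Rnase1, the pancreatic ribonuclease, 16 against 1.45 and 6 against 0.437. A bin 66791 bp from the start of Pkdcc held 16 against 0.120 and 5 against 0.148.

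The E-box CAGCTG was found in 58.8% (54.3 to 63.2) of the 495 bins, against 31.4% of all 2296844 bins with a fragment and 36.7% of the 2787 candidate bins that were not picked, most of which were promoters. In the 32 bins picked in both sets it was found in 22 (68.8%, 49.99 to 83.9). CAAGGTCA was found in 10.3% (7.77 to 13.3), against 5.61% and 4.63%, and TGGGAA in 70.1% (65.9 to 74.1), against 60.7% and 54.5%. AGATAA was found in 43.4% (39.0 to 47.9), which lay below the 50.6% of all bins and above the 21.1% of the candidates, and TGTTTAC in 16.8%, against 14.5% and 9.90%. An HNF1 motif was found in 1 of 495. In the 178 bins picked in −RV, CAGCTG was found in 49.4% (41.9 to 57.02), above the 31.4% of all bins. CAAGGTCA was found there in 5.06% (2.34 to 9.38) and TGGGAA in 66.3% (58.8 to 73.2). Both intervals held the share of all bins. AGATAA was found in 37.6% (30.5 to 45.2), against 50.6%, and TGTTTAC in 14.04%, against 14.5%. An excess of CAAGGTCA and TGGGAA over all bins was thus clear only among bins picked in +RV. Letters were searched on both strands, and a match describes the letters only.

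In the 300-base promoter sequences, TGGGAA was found in 7 of 10 genes of the rule and 12 of 19 outside enzymes, against 25.6% of all 32817 promoters. CAGCTG was found in 3 of 10 and 3 of 19, against 16.3%, and TGTTTAC in none of either, against 3.65%. The Cpa1 sequence printed above holds CAGCTG at more than 1 place, and the Cel sequence holds CAAGGTCA on the opposite strand, where it reads TGACCTTG.

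Around the start of the 54 outside acinar genes, the fragments of acinar-gene barcodes were highest just upstream of the start. Their ratio was highest some kb downstream of it. Steps were counted by distance alone and were not cut at the end of a gene. In the 500 bp before the start lay 160 fragments against 36.1 expected in +RV (4.43, 3.72 to 5.24) and 24 against 8.63 in −RV (2.78, 1.72 to 4.31). From 3500 to 4000 bp downstream in +RV lay 79 against 5.61, a ratio of 14.1 (10.6 to 18.5). Upstream between 4500 and 4000 bp the ratio was 1.55 (0.872 to 2.56). In −RV the highest ratio lay between 4000 and 4500 bp downstream, with 15 against 1.45 (10.3, 5.08 to 20.2), and its interval overlapped those of most other steps.

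**Figure D5:**
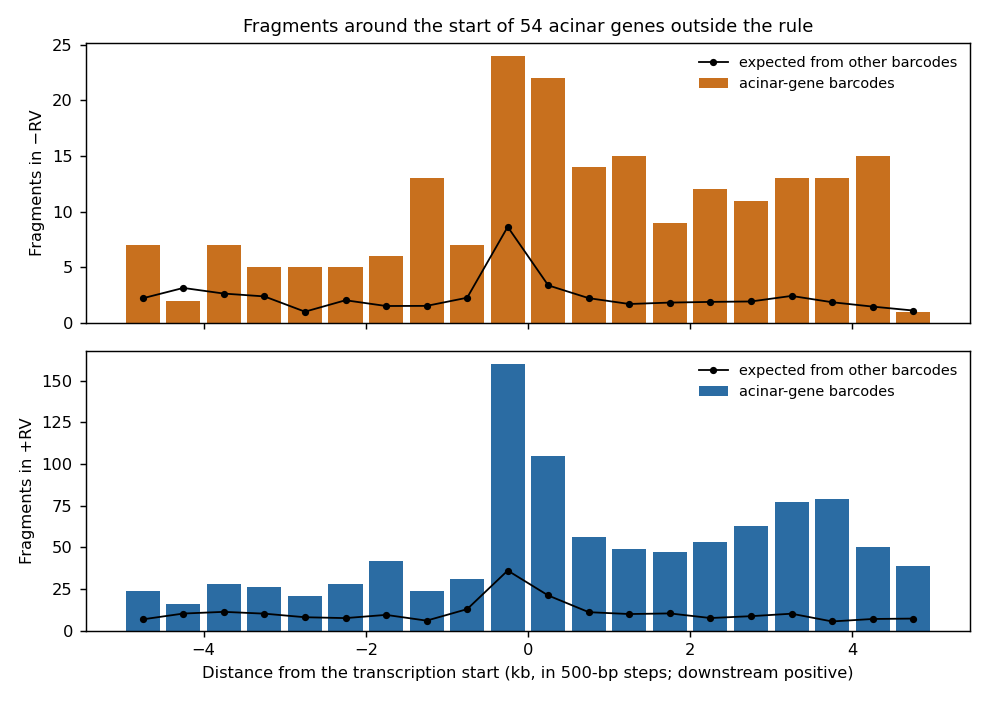
Fragments of acinar-gene barcodes (bars) and the number expected from other barcodes (line with points) in 500-bp steps around the start of 54 acinar genes outside the rule, for −RV (top) and +RV (bottom). The bars are highest in the 500 bp before the start (24 and 160), and in +RV a second rise of bars lies from 2000 to 4000 bp downstream, where the line stays at or below 10.3.

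Few genes of the rule held a peak of the bulk libraries. Of the 13 genes, 0 and 1 had a peak in the −RV libraries and 4 and 2 in the +RV libraries. All 13 B cell genes and all 20 housekeeping genes had one in each of the 4. The share of all protein-coding genes with a peak was not counted. Windows of the B cell genes cover 1089 kb and those of the housekeeping genes 405 kb, against 322 kb for the rule. The gene with peaks in −RV replicate 2 was Cela1, whose highest fold over local background, as given by the authors, was 3.31. In +RV replicate 1 the genes were Ctrc, Cela1, Dmbt1 and Cpa1, and in replicate 2 Cela1 and Dmbt1. Dmbt1 had the highest fold, 5.55 and 4.85, against a median of 4.35 over all peaks of either library. In bulk libraries fewer nuclei of a type and less open DNA per nucleus cannot be told apart.

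The acinar-gene barcodes differed from the others in quality measures as well. In +RV 10.7% of all their fragments were mitochondrial, against 6.34% expected from other barcodes of the same depth, and in −RV 8.11% against 7.28%. Medians per barcode, against all other barcodes, were 6.06% against 5.60% in +RV and, in the other direction, 4.26% against 6.24% in −RV. A mitochondrial share over 20% was found in 85 of 480 (17.7%) in +RV, against 2.40% of others, and in 12 of 120 (10%) in −RV, against 4.37%. Without such barcodes in either group the ratio at both outside lists was 3.40 (3.19 to 3.61) in +RV and 3.52 (3.08 to 4.02) in −RV.

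Promoters, taken as the 1000 bp before a start and the 200 bp after it, held 19.2% of nuclear fragments outside the rule windows in +RV, against 16.3% at the same depth, and 16.6% against 14.7% in −RV. Enrichment at starts was 12.3 against 10.2 in +RV and 10.4 against 8.98 in −RV. Fragments longer than the DNA around a nucleosome core made up 20.9% against 20.8% in +RV and 2.70% against 2.32% in −RV. Acinar-gene barcodes were found with each of the 20 Tn5 indexes of both sets. The ratio at outside enzymes was above 1 for all 20 indexes in +RV, from 4.13 to 12.4, and for 19 in −RV, from 1.52 to 27.4, while no fragment was expected for the other one. Without barcodes over 20% mitochondrial, the share of acinar-gene barcodes was 4.71% in −RV and 2.18% in +RV.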

How the data were processed

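The authors deposited unique single-cell fragments on mm10, each with a barcode and both end positions, as other values with no unit, and 1 peak list per bulk library with a fold ratio over local background and a −log10 q, both on the deposited scale of their peak caller. SEACR 1.3, Picard 1.119, SAMtools 1.15 and Bowtie2 2.4 are listed, without roles, in the processing notes of the submitters. Bulk −log10 q values were not thresholded further, and depth behind the bulk lists is unknown.

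Single-cell libraries had been pooled by the authors into 1 set per condition, and each set's condition was taken from the short form of it in the name, as for the bulk lists. Fragments were counted by midpoint over protein-coding genes of GENCODE vM21, taken as the gene body plus 5000 bp upstream. Expected counts came from the other barcodes of the same depth class, with edges at 600, 700, 850, 1000, 1500 and 2500 nuclear fragments, and nuclear fragments outside the rule windows as denominator. Intervals are 95% exact binomial for shares and exact conditional for ratios. A gene was used where its level over all barcodes gave at least 10 fragments in acinar-gene barcodes, and called higher at a ratio of at least 2 and lower at most 0.5. Bins of 1000 bp needed 10 (+RV) or 5 (−RV) fragments of acinar-gene barcodes and a ratio of at least 4. No test was run, since each condition is 1 sample.

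Named genes were the 13 of the rule, the 10 outside acinar genes with most fragments in +RV, the 10 highest and 10 lowest ratios in +RV, the 5 highest and 5 lowest in −RV, and 2 genes of each other list, of which those that the text needs are printed and 2 are not reported here. The rule, the members and all 21 lists were chosen with earlier results of these data known. Of the listed genes, Amy2b (not protein-coding in GENCODE vM21) and Si were not matched. RefSeq promoters matched 10 of the 13 rule genes, 19 outside enzymes and 23 outside regulators. The ratio was tested on simulated data with known folds, and its intervals were not. Python 3.11.15, numpy 2.4.6, pandas 2.3.3 and scipy 1.17.1 were used. Alternatives were other rules, windows, minimums and depths, and each rule gene left out in turn.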

Additional observations from a re-analysis of the deposited data

How the results depend on the processing

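No ratio turned to the other side of 1, and a share or a count has no such side. Of 104 alternative values, 72 moved by less than the interval of the value reported, or by at most 1.5 times for counts. The other 32 moved by more. Each condition was 1 pooled set, and few fragments per gene limited which genes could be used. No paired analysis was possible because the labelled replicates were pooled in the deposited fragments.

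The share of acinar-gene barcodes was 2.41% in −RV and 1.23% in +RV with 3 or more genes, 4.0% and 1.65% after thinning to 500 nuclear fragments, and 12.1% and 6.64% among barcodes with at least 1000 fragments. In +RV it was 2.21% with gene bodies alone, 2.18% with the shared stretch of Cela2a and Ctrc counted once, 2.1% without the 5% deepest barcodes and 2.18% without barcodes over 20% mitochondrial. With each rule gene left out in turn it ran from 4.03 to 4.95% in −RV and from 2.09 to 2.53% in +RV.

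The ratio at both outside acinar lists was 3.15 in −RV and 3.03 in +RV among barcodes with at least 1000 fragments. In +RV it was 4.10 with 3 or more genes, 4.11 without the deepest barcodes, 3.30 without outside genes within 1 Mb of a rule gene, 3.82 with the shared stretch counted once, 4.01 without barcodes with 2 B cell, T cell or erythroid genes, and 3.47 to 3.83 with each rule gene left out. The mitochondrial limit, the shared stretch for the ratio and the removal of barcodes with B cell, T cell or erythroid genes were chosen after seeing the data.

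The count of higher genes was 45 in −RV and 446 in +RV. It was 208 and 772 with a minimum of 5 fragments and 3 and 177 with 20, where fewer genes enter. In −RV it was 3 with 3 or more genes, where 173 genes were used. With promoter windows it was 0 of 4 genes used in −RV, with 3 lower, and 116 of 2957 in +RV, with 75 lower, so that higher genes outnumbered lower ones in +RV, against 446 higher and 785 lower with gene windows. No test was run on these counts, and the cause of the other shifts was not tested.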
